A study of Mus musculus with 24 samples.

Results

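Fast and slow cycling mouse embryonic fibroblasts (MEF) were compared under induction of the reprogramming factors. The comparison used 8 of the 24 libraries of the series, 4 of the fast and 4 of the slow gate, chosen by their labels. Both gates came from MEF kept for 6 days in embryonic stem cell medium with 15% serum, LIF at 1000 U/ml and doxycycline at 2 ug/ml, which switched on the Yamanaka factors (Sox2, Klf4, Myc and Oct4, the product of Pou5f1). The cells had been labelled with CFSE, a dye that daughter cells share at each division, and were sorted after 48 hours into cells that had diluted the dye most (fast) and least (slow). Each library was made from the cytosolic RNA of 1000 sorted cells. The induction and the medium are thus shared by the fast and the slow group. Also used were 4 libraries of induced pluripotent stem (iPS) cells that no longer needed the factors, sorted as positive for Oct4:GFP and grown in the same medium without doxycycline, and 4 of untreated bulk MEF in 10% serum. The last comparison used 5 fast and 3 slow libraries of granulocyte monocyte progenitors (GMP), blood progenitors grown in serum-free medium with cytokines and sorted after 24 hours of CFSE dilution, for which the labels name no doxycycline. The labels give neither the strain nor the promoter and construct of the factors, and whether replicates were separate cultures or animals is not said there. The p-values therefore reflect only how these libraries varied, part of which may be technical.

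Reprogramming replaces the programme of a fibroblast by that of a pluripotent cell. Fibroblasts make matrix, growth factors and the receptors that hear them, while pluripotent cells divide quickly on short gap phases and spend much of their capacity on nucleotides, proteins and chromatin. Most cells that receive the factors do not complete the change, and epithelial genes are known to come on early in those that do. CFSE separates cells by divisions made, so the gates ask which genes go with fast division in an induced culture.

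The 8 libraries held 4937453 to 10248532 counts in fast MEF and 6852283 to 10972162 counts in slow MEF. Genes with at least 1 count numbered 13925 to 14728 in fast and 14431 to 14978 in slow libraries. Rn45s and Lars2, genes that collect ribosomal RNA reads, took 6.83% to 10.2% of the counts in fast and 5.08% to 11.7% in slow libraries. Libraries correlated at 0.841 to 0.934 within the fast gate, at 0.831 to 0.89 within the slow gate and at 0.576 to 0.68 across gates (Pearson, log2 CPM + 1 over genes). Fast replicate 3, the library with the fewest counts, stood apart from its gate at 0.841 to 0.85, against 0.92 to 0.934 among the other fast libraries, and the values that turn on it are given without it below.

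The label was checked against marker genes of the cell types that an induced culture could hold. All 10 fibroblast markers were present in both gates and all 10 were lower in fast MEF, where their summed level was 2059 to 4987 CPM, against 41201 to 78644 CPM in slow MEF. Keratinocyte markers ran the other way in sum, at 15328 to 29900.4 CPM in fast, against 70.4 to 659.6 CPM in slow MEF. None of the 10 was at 0 in either gate, but 3 were too low to test. Of the 7 tested, 5 were called higher and 2 were not called. Krt17 and Krt14 made up most of the sum, with 7740.2 to 18440.0 and 7092 to 14283 CPM in fast MEF on the 8-library scale. Neuron markers summed to 621 to 871 CPM in fast, against 55.7 to 95.2 CPM in slow MEF. Of the 4 neuron markers with enough counts to be tested, Nefl and Rbfox3 were called higher, Gap43 lower and Syt1 was not called, so the sum does not speak for every member. Nefl, a neurofilament chain, made up most of it, with an average of 846 CPM in fast MEF, against 12.7 CPM in slow MEF on the 8-library scale. The call of Rbfox3 was lost without slow replicate 2 or fast replicate 3 (edgeR adjusted p = 0.0551 and 0.089), and that of Gap43 without fast replicate 1 (0.0523). The log2 fold change of Nefl, 6.05, was 8.43 without slow replicate 2, that of Rbfox3, 5.11, was 2.61 without fast replicate 3 and 5.86 without slow replicate 3, and that of Gap43, -3.87, was -6.78 without fast replicate 2. Of the blood cell lists, macrophage markers summed to 11.3 to 31.6 CPM in fast, against 2.84 to 156 CPM in slow MEF, and mast cell markers to 2.26 to 5.73 CPM in fast, against 42 to 69.9 CPM in slow MEF. Endothelial markers summed to 26.1 to 34 CPM in fast, against 1.93 to 3.82 CPM in slow MEF. The highest sums in either gate were 12.9 CPM for skeletal muscle, 22 CPM for neural crest and glia, 47.7 CPM for chondrocytes and 2.65 CPM for red cells, whose 5 globin genes were at 0 throughout. The 9 pluripotent stem cell markers summed to 4.45 to 13.8 CPM in fast, against 0.758 to 8.02 CPM in slow MEF, and to 1968 to 2786 CPM in iPS. In bulk MEF the sums were 24627 to 41389.8 CPM for fibroblast and 73.3 to 91.2 CPM for keratinocyte markers. Both gates are named MEF by their labels, and the slow one was rich in fibroblast markers. The fast one was far lower in fibroblast markers and far higher in keratinocyte ones, so these markers did not bear out its name. In RNA from pools of cells, fewer cells of a type and less RNA per cell cannot be told apart, and the part of these markers in the gene groups below was not tested.

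Of 23283 genes in the table, 11742 had enough counts to be tested. At a Benjamini-Hochberg adjusted p below 0.05 in edgeR's quasi-likelihood test, 3726 genes (31.7%) were called different between the gates. Of these, 1691 (14.4% of those tested) were higher and 2035 (17.3%) lower in fast MEF. The changes were wide as well as many. The median log2 fold change was 2.23 among the genes called higher and -2.66 among those called lower, with -0.11 over all genes tested, and 318 genes were over 16-fold higher and 436 over 16-fold lower. The 4 fast libraries lay wholly above the 4 slow ones in 1602 of the genes called higher, and wholly below them in 1869 of those called lower. Over all genes tested, with or without a call, 1985 (16.9%) lay wholly above and 2220 (18.9%) wholly below. Without fast replicate 3 the number called was 3863, of which 3272 were among the 3726. With all 24 libraries in 1 fit, which share 1 estimate of the spread, 1246 genes were called, and 1127 of them were among the 3726. The list counts below are to be read beside the 14.4% higher and 17.3% lower over all genes tested. List counts from the fit of all 24 libraries, the joint fit, come without its own share over all genes. They therefore do not show whether a list stood above that share.

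**Figure D1:**
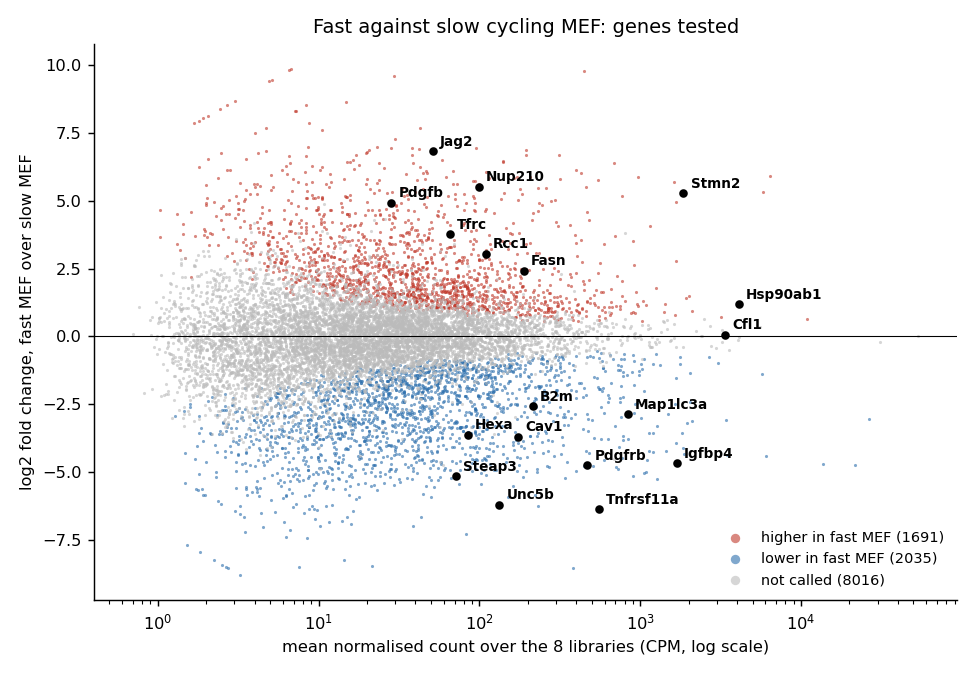
Log2 fold change of fast over slow MEF (vertical axis) against the mean normalised count over the 8 libraries (CPM, log scale) for the 11742 genes tested; red points were called higher in fast MEF, blue lower, grey not called, and black points are named in the text. Calls in both directions run over the whole range of levels, from a few CPM to Stmn2, Hsp90ab1 and Igfbp4 above 1000 CPM.

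The 4 factor genes were all higher in the fast gate. The counts are per gene symbol, so reads of the induced copies and of the cells' own genes are summed. How far the gates differed in the induced copies alone cannot be read from these levels. Sox2 had 224, 234, 479.9 and 414 CPM in fast MEF, against 6.21, 10.9, 20.3 and 4.36 CPM in slow MEF. Myc had 699, 775, 823 and 842 CPM in fast MEF, against 69.1, 60.1, 95.1 and 45.8 CPM in slow MEF. Pou5f1 had 22.5, 37.1, 137 and 78.7 CPM in fast MEF, against 1.45, 2.64, 5.5 and 1.41 CPM in slow MEF. No slow library reached any fast library for these genes, and within each gate replicate 3 was the highest for Sox2 and Pou5f1. With factors over the 16 MEF and iPS libraries, Myc averaged 744 CPM in fast, 64.2 CPM in slow and 167 CPM in bulk MEF.

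Purine and pyrimidine synthesis, which supplies the building blocks of DNA and RNA, had 11 of 19 tested members higher and 1 lower (median log2 fold change 1.28). Ppat, the enzyme of the first committed step of purine synthesis, had 67.4, 43.9, 32.7 and 70.4 CPM in fast MEF, against 3.04, 3.76, 4.72 and 20.5 CPM in slow MEF, a log2 fold change of 2.74 ± 0.65 (SE; edgeR adjusted p = 0.00968). The single high slow library, replicate 4, held the difference down, which was 3.80 without it. Cad, the enzyme that opens pyrimidine synthesis, was higher by 2.48 ± 0.60 and Atic, which closes purine synthesis, by 2.16 ± 0.34. Cad was 3.28 higher without slow replicate 4, its highest slow library. Ctps2, 1 of the CTP synthases, went the other way at -2.84 ± 0.69, and at -3.64 without fast replicate 2.

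Serine, glycine and folate metabolism, which supplies carbon units for nucleotides, had 5 of 15 tested members higher (33.3%) and 1 lower (6.67%), with a median of 0.81. The shares over all genes tested were 14.4% and 17.3%. Mthfd1, the cytosolic folate enzyme, had 97.3, 110.2, 150.1 and 142 CPM in fast MEF, against 11.4, 15.7, 33.8 and 13.1 CPM in slow MEF (2.76 ± 0.41). Mthfd1l, its mitochondrial counterpart, had 88.4, 81.9, 103 and 77.4 CPM in fast MEF, against 14.4, 28, 12.7 and 55.7 CPM in slow MEF, a rise of 1.66 ± 0.47 (edgeR adjusted p = 0.0214). It was 2.25 without slow replicate 4 and missed the threshold without slow replicate 2 (edgeR adjusted p = 0.0515). Aldh1l2, the mitochondrial formyltetrahydrofolate dehydrogenase, had 6.29, 13.4, 8.91 and 7.72 CPM in fast MEF, against 103, 124, 125 and 82.4 CPM in slow MEF, a change of -3.58 ± 0.36. Mthfd2, another mitochondrial folate enzyme, was at -0.16 ± 0.30 and was not called. Shmt1, the cytosolic serine hydroxymethyltransferase, was higher by 2.38 ± 0.58, and Ahcy, which clears S-adenosylhomocysteine, was not called at 0.26 ± 0.29.

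Amino acid transporters had 4 of 15 tested members higher (26.7%, against 14.4% over all genes tested) and 3 lower (20%, near the 17.3% over all genes tested), with a median of -0.17, and the lower count was 1 without fast replicate 2. Slc7a1, a carrier of arginine and lysine, had 530.1, 707, 784 and 835 CPM in fast MEF, against 60.9, 104, 107 and 97.2 CPM in slow MEF (2.95 ± 0.26). A second carrier of the same substrates, Slc7a3, rose by 2.72 ± 0.46. The 3 members called lower are not among the carriers named here. The glutamine carrier Slc1a5 rose by 3.29 ± 0.73 and by 4.61 without slow replicate 1. Slc7a5, the carrier of large neutral amino acids, was at 0.50 ± 0.20 and passed the threshold only without fast replicate 3 (log2 fold change 0.62, edgeR adjusted p = 0.0408).

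Lipid genes changed in both directions, with 6 of 23 tested members higher (26.1%) and 8 lower (34.8%). The shares over all genes tested were 14.4% and 17.3%, and the median of the list was -0.32. Fasn, which makes palmitate, had 281, 331, 303 and 359 CPM in fast MEF, against 55.7, 41.6, 73.9 and 66 CPM in slow MEF, a rise of 2.43 ± 0.25. Elovl6, which lengthens the product, rose by 2.30 ± 0.56, and Fabp5, a fatty acid carrier of epithelial cells, by 1.45 ± 0.20. Acly, which makes the acetyl-CoA for synthesis, was not called at 0.06 ± 0.25, and neither was the carboxylase Acaca at 1.19 ± 0.42 (edgeR adjusted p = 0.0527). Acaca passed without slow replicate 4 or fast replicate 3 (1.6 and 1.37; edgeR adjusted p = 0.0137 and 0.0408) and with DESeq2 (1.26, adjusted p = 0.0138). Secreted lipid carriers were among the members that fell, with Apod at -5.28 ± 0.45 and Apoe at -5.51 ± 0.82. Without slow replicate 4, its highest slow library, Apoe was at -4.89. With all 24 libraries in 1 fit, the counts of higher members were 4 for nucleotide synthesis, 1 for serine and folate metabolism and 2 for lipid genes, where the lower count was 4.

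In the lists of protein synthesis, mitochondrial import and chaperones that follow, members were higher or not called, with none called lower. The separate list of secretory pathway folding and stress, given further below, had 9 of 20 tested members lower (45%). Of 20 tested cytosolic tRNA synthetases 5 were higher (median 0.51), of 22 translation factors 7 (median 0.40) and of 28 genes of mitochondrial import and translation 6 (median 0.82). These shares of 25%, 31.8% and 21.4% compare with 14.4% over all genes tested. The translation factors fell to 4 called without slow replicate 2, fast replicate 1 or fast replicate 4. The synthetases Farsa, Vars and Hars were higher by 1.88 ± 0.42, 1.64 ± 0.22 and 1.50 ± 0.30, and Eprs was not called at -0.21 ± 0.25. Among translation factors Eif4g1, the scaffold of the cap complex, and Eif5a, which relieves stalled ribosomes, were both higher by 1.12 ± 0.21. The elongation factors were not called, Eef2 at 0.33 ± 0.19 and Eef1a1 at -0.49 ± 0.18, although Eef1a1 passed at -0.59 without slow replicate 3 (edgeR adjusted p = 0.0401). Timm50, part of the inner membrane import channel, rose by 1.83 ± 0.49.

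Of 19 tested chaperones and co-chaperones, 12 were higher, none was lower and 7 were not called (median 0.97). Hsp90ab1, the constitutive Hsp90, had 5741, 5717, 5878 and 5417 CPM in fast MEF, against 2205, 2659, 2559 and 2579 CPM in slow MEF, a rise of 1.19 ± 0.14 (edgeR adjusted p = 0.000194). The spread within each gate was small beside that gap. Its inducible relative Hsp90aa1 rose by 1.54 ± 0.21, the co-chaperone Hsph1 by 1.48 ± 0.31 and the mitochondrial chaperonin Hspd1 by 1.63 ± 0.22. Cct5, a subunit of the tubulin- and actin-folding chaperonin, was at 0.73 ± 0.26 (edgeR adjusted p = 0.0547) and passed at 0.91 without fast replicate 3 (edgeR adjusted p = 0.023). Hspa9, the mitochondrial Hsp70, was at -0.31 ± 0.22.

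The nuclear pore and nuclear transport list had the highest share called in a single direction of the 37 lists with 5 or more tested members, 17 of 20 higher and none lower (85%, median 1.61). Rcc1, which charges Ran with GTP on chromatin and so powers nuclear transport, had 201, 236, 125 and 221 CPM in fast MEF, against 23.2, 41.9, 22 and 7.07 CPM in slow MEF, a rise of 3.05 ± 0.49 (edgeR adjusted p = 0.00122). Nup210, a transmembrane pore protein, had 170.3, 175, 165 and 267 CPM in fast MEF, against 2.25, 5.59, 8.49 and 0.707 CPM in slow MEF, a rise of 5.52 ± 0.68. Nup210 was below 10 CPM in all 4 slow libraries and above 160 CPM in all 4 fast ones. Xpo1, the main nuclear export receptor, had 90.4, 124, 1059 and 137 CPM in fast MEF, against 47.2, 54.1, 35.7 and 32.2 CPM in slow MEF. Its rise of 3.06 ± 0.76 rested on fast replicate 3 for its size and was 1.54 without it (edgeR adjusted p = 0.00508). Nup155, a scaffold protein of the pore, was higher by 2.19 ± 0.55, and by 1.43 without that library, and the importin Ipo4, also highest there, was not called at 0.52 ± 0.27.

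Splicing machinery was higher in 12 of 21 tested members and lower in none (57.1%, median 0.82). Srsf7, a splicing activator that is itself exported with mRNA, rose by 1.78 ± 0.45. The U2 particle protein Snrpa1 rose by 1.74 ± 0.47, but missed the threshold without fast replicate 1 or 4 (edgeR adjusted p = 0.0693 and 0.0513). Hnrnpa2b1, among the more abundant RNA-binding proteins, was at 0.72 ± 0.28 and not called in the full set, while it passed without slow replicate 1 or fast replicate 3 (edgeR adjusted p = 0.0257 and 0.0468). With all 24 libraries in 1 fit, 7 nuclear transport, 3 splicing, 4 chaperone, 2 synthetase, 2 translation factor and 1 mitochondrial member were called higher. The share of all genes called higher in that fit is not given here.

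**Figure D2:**
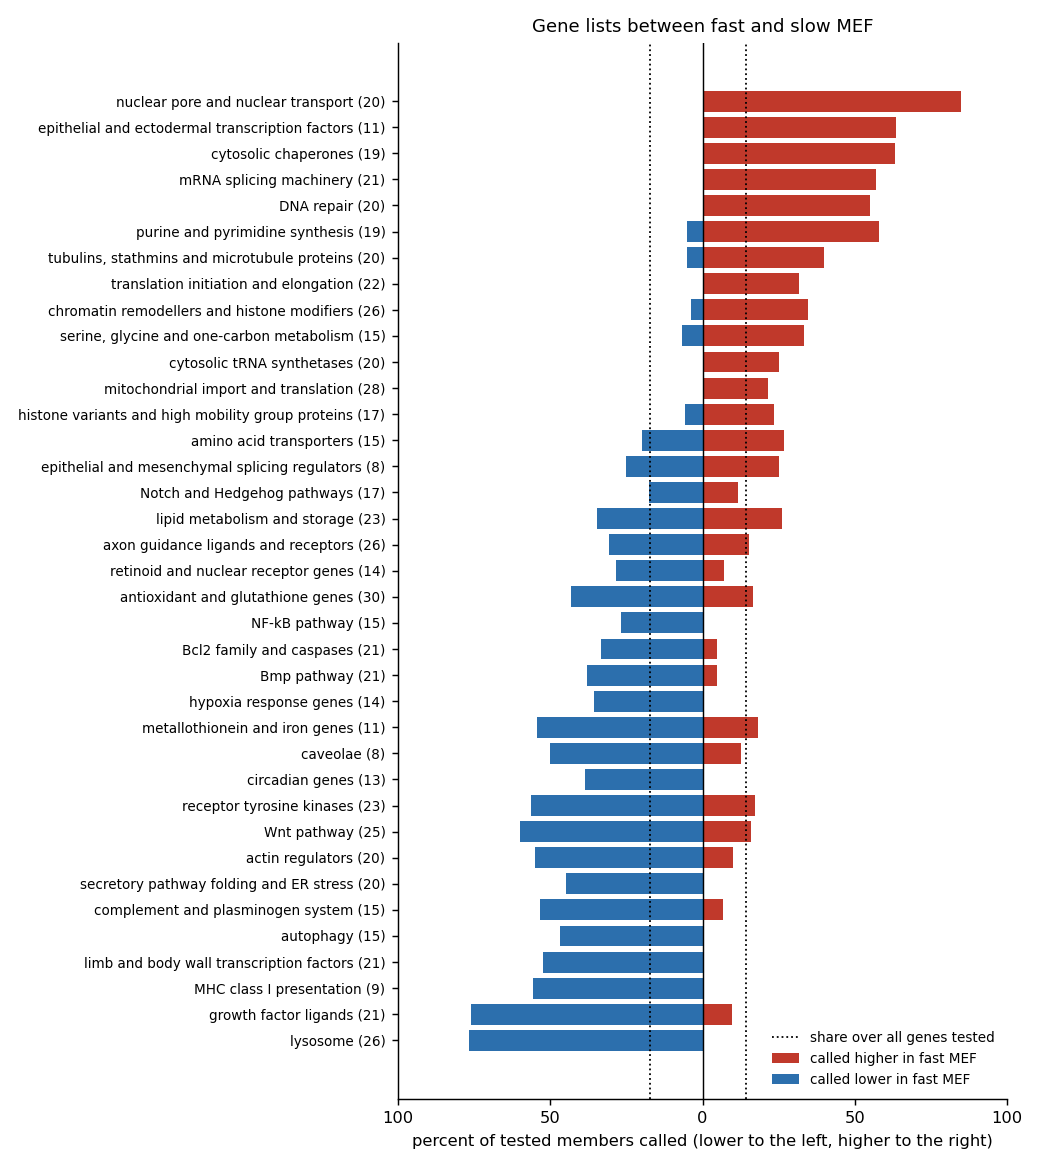
Percent of tested members called higher (red, right) and lower (blue, left) in fast MEF for the 37 lists with 5 or more tested members, the number tested in brackets; dotted lines mark the 14.4% and 17.3% called over all genes tested. Nuclear transport reaches 85% higher, and lysosome and growth factor ligands 76.9% and 76.2% lower.

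Chromatin remodellers and histone modifiers had 9 of 26 tested members higher and 1 lower (median 0.73), and DNA repair genes 11 of 20 higher and none lower (median 1.82). Hells, a remodeller of the DNA methylation machinery, had 17.4, 28.6, 15.3 and 33 CPM in fast MEF, against 3.96, 7.11, 4.24 and 4.13 CPM in slow MEF (2.27 ± 0.48). Wdr5, a core subunit of the H3K4 methyltransferase complexes, rose by 1.82 ± 0.37 and Prmt5, an arginine methyltransferase, by 1.46 ± 0.23. Kdm5b, which removes H3K4 methylation, was the member that fell, by 1.70 ± 0.33 on the log2 scale. Chd4, the helicase of the NuRD complex, was at 0.66 ± 0.25 and was not called.

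High mobility group proteins and histone variants were mixed, 4 of 17 higher (23.5%) and 1 lower (5.88%) with a median of 0.01. The shares over all genes tested were 14.4% and 17.3%. Hmga1, an architectural protein of embryonic chromatin, had 78.1, 31, 82.1 and 79.4 CPM in fast MEF, against 8.59, 11.9, 5.82 and 2.83 CPM in slow MEF (3.21 ± 0.53). Its relatives Hmgb2 and Hmgb3 rose by 2.61 ± 0.40 and 3.41 ± 0.69, and the macroH2A gene H2afy2 fell by 1.89 ± 0.51. The lower count was 2 without slow replicate 2 or fast replicate 4. Among repair genes Parp1, a sensor of strand breaks, rose by 3.08 ± 0.32, Brca2, of homologous recombination, by 2.88 ± 0.49 and the mismatch repair gene Msh6 by 1.8 ± 0.44. With all 24 libraries in 1 fit, 1 chromatin modifier and 7 repair genes were called higher.

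Promoters were read for the genes with a single RefSeq window, 250 bases before to 50 after the start on build GRCm38.p6, which 955 of the genes called higher, 1143 of those called lower and 6668 of the genes tested had. The E2F motif, TTTCCCGC or TTTGGCGC on either strand, is the site of the E2F factors that drive S phase genes. It was present in 5.45% of the promoters of genes called higher and 1.92% of those called lower, with 3.42% over all genes tested and 1.61% over all promoters of the table. Among the genes named, Tap1, which fell, carried it as well as genes that rose. Hells and Nup210 carried it, and their bases before the start are shown with the match in capitals because both genes rose and differ in role.
Hells promoter, chr19:38930740-38930989, plus strand: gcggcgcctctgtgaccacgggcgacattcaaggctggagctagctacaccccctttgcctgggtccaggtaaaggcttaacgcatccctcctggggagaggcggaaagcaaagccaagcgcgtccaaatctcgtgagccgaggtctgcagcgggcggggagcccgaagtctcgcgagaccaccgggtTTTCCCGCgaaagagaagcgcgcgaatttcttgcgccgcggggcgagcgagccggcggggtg
Nup210 promoter, chr6:91116827-91117076, minus strand: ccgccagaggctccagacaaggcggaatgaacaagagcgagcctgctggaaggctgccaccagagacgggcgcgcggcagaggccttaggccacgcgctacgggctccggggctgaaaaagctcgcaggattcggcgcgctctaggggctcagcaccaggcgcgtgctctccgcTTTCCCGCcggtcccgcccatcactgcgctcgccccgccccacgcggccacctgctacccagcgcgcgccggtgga
The match is a description of the letters and not a site shown to be bound. Other motifs were nearer to even. The Myc E-box CACGTG stood at 10.6% among genes called higher, 9.97% among those called lower and 10.5% over all genes tested, and the NF-Y motif CCAAT at 38.8%, 39.9% and 39.5%. The CREB motif TGACGTCA was in 3.77% of promoters of higher and 1.84% of lower genes (3.48% over all tested). The TEAD motif GGAATG ran the other way, in 9.53% of higher and 15.1% of lower genes (11.8% over all tested). The AP-1 motif TGANTCA was in 5.55% and 5.51% of the 2 sets (4.53%), the TATA box TATAAA in 7.43% and 9.27% (6.63%), the octamer ATGCAAAT in 1.57% and 1.84% (1.35%) and the NRF1 motif in 10.5% and 6.91% (11.2%). Motifs were counted on both strands and a window can hold several.

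Lysosome genes lay on the lower side. Of 26 tested members 20 were lower in fast MEF and none higher (76.9%, median -1.90). Hexa, a subunit of the hexosaminidase that breaks down gangliosides, had 20.8, 16.3, 2.33 and 11 CPM in fast MEF, against 162, 185, 98.9 and 182 CPM in slow MEF, a change of -3.63 ± 0.57 (edgeR adjusted p = 0.00112). The collagen-degrading cathepsin Ctsk changed by -4.04 ± 0.62. Ctsz, another cathepsin, was lower in every fast library but not called at -0.54 ± 0.21. With all 24 libraries in 1 fit, 12 members were called lower.

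Autophagy genes, which deliver cargo to lysosomes, had 7 of 15 tested members lower and none higher (median -1.22). Map1lc3a, a membrane anchor of the autophagosome, had 214, 114, 333 and 141 CPM in fast MEF, against 1551, 2217, 1441 and 680.2 CPM in slow MEF (-2.88 ± 0.42). Gabarapl1, of the same family, fell by 2.02 ± 0.20. Wipi1, which binds the forming membrane, had 15, 48.8, 9.97 and 10.7 CPM in fast MEF, against 681, 368, 213 and 48.1 CPM in slow MEF, so that fast replicate 2 reached slow replicate 4. It changed by -3.95 ± 0.81, by -4.77 without fast replicate 2 and by -3.31 without slow replicate 1. Tfe3, a transcription factor of lysosome genes, was not called at -0.22 ± 0.23. Tfeb, another such factor, was not called either, with slow replicate 4 far above the other slow libraries. It had 150.4, 105, 213 and 92.8 CPM in fast MEF, against 0.528, 14.6, 22.6 and 181 CPM in slow MEF. In the joint fit 4 autophagy members were called.

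Secretory pathway and stress genes fell in 9 of 20 tested members with none higher (median -0.95). Ddit3, the stress factor also called Chop, had 5.89, 0.966, 4.24 and 2.93 CPM in fast MEF, against 45, 57.7, 109 and 93.8 CPM in slow MEF (-4.45 ± 0.59). Its target Trib3 fell by 2.06 ± 0.38. The general chaperones of the compartment were not called, Hspa5 at -0.50 ± 0.20 and Hsp90b1 at -0.93 ± 0.33, and each passed when slow replicate 4 was left out (-0.61 and -1.13; edgeR adjusted p = 0.041 and 0.0213). Herpud1, of the degradation complex, was near the threshold at -1.80 ± 0.62 (edgeR adjusted p = 0.0482) and missed it without any of 6 libraries. The number called was 5 without any 1 of the fast libraries and 1 in the joint fit.

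The metallothionein and iron list had 2 of 11 tested members higher (18.2%, near the 14.4% over all genes tested). It had 6 lower (54.5%, against 17.3% over all genes tested), with a median of -1.37. Tfrc, the transferrin receptor that takes up iron, had 122, 158, 72.1 and 137 CPM in fast MEF, against 6.6, 10.9, 17.1 and 1.53 CPM in slow MEF, a rise of 3.76 ± 0.64 (edgeR adjusted p = 0.00164). Steap3, the endosomal reductase that works beside it, had 4.77, 4.06, 1.7 and 4.61 CPM in fast MEF, against 239, 90.2, 100.1 and 126 CPM in slow MEF, a change of -5.17 ± 0.49. Uptake receptor and reductase therefore differed in opposite directions with no overlap of libraries. Fth1, the ferritin chain that stores iron, fell by 2.87 ± 0.30 and the metallothionein Mt2 by 1.98 ± 0.40, while the metal importer Slc39a8 rose by 1.94 ± 0.46.

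Antioxidant genes had 5 of 30 tested members higher (16.7%, near the 14.4% over all genes tested). They had 13 lower (43.3%, against 17.3% over all genes tested), with a median of -0.53. Glutathione reductase Gsr rose by 2.47 ± 0.33 and the transferase Gsta4 by 2.62 ± 0.30. Another transferase, Gstm2, changed by -3.36 ± 0.62, and by -4.36 without fast replicate 1. The secreted peroxidase Gpx3 fell, with 73, 40.3, 18.4 and 53.4 CPM in fast MEF, against 781, 586, 448 and 594 CPM in slow MEF (-3.70 ± 0.41). Sod3, the extracellular superoxide dismutase, changed by -3.53 ± 0.85 and by -4.90 without fast replicate 1. Hypoxia genes had 5 of 14 tested members lower (35.7%, against 17.3% over all genes tested) and none higher (median -0.92). The lower count was 3 without slow replicate 1, fast replicate 2 or fast replicate 3. Hif1a, the regulator of the set, fell by 1.98 ± 0.27, and the mitophagy receptor Bnip3l fell by 1.58 ± 0.32. The vasoactive peptide gene Adm was at -4.41 ± 0.84. Adm changed by -5.73 without fast replicate 1. In the joint fit, 2 antioxidant genes were called higher and 5 lower, 1 iron gene higher, and 1 hypoxia gene lower.

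**Figure D3:**
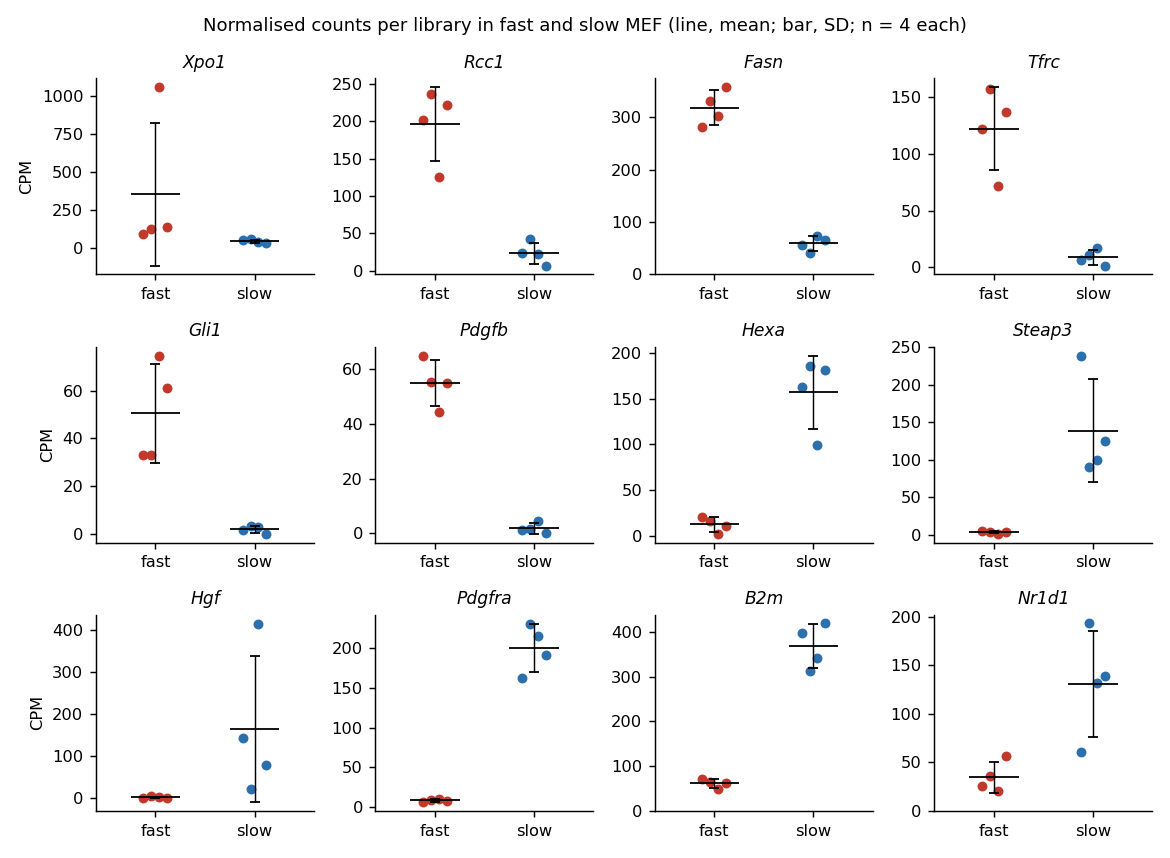
Normalised counts (CPM, linear axes from 0 or just below) of 12 genes in each fast (red, left) and slow (blue, right) MEF library, with the mean and SD of each gate (n = 4). Xpo1 shows fast replicate 3 at 1059 CPM, and Pdgfra and B2m show gates far apart with little spread within them.

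Of 21 tested growth factor ligands 16 were lower and 2 higher (76.2% lower, median -3.39). Hgf, the ligand of Met, had 0, 3.19, 0.636 and 0.177 CPM in fast MEF, against 141, 21.5, 415 and 77.7 CPM in slow MEF, a change of -7.30 ± 1.32 (edgeR adjusted p = 0.00228). Its size depended on single libraries, at -9.50 without fast replicate 2 and -6.28 without slow replicate 3. Ptn, a heparin-binding growth factor, had 160.4, 127, 329 and 87.5 CPM in fast MEF, against 3162, 3808, 3642 and 3656 CPM in slow MEF (-4.34 ± 0.39), and its relative Mdk changed by -5.46 ± 0.98. The exceptions were both platelet-derived growth factors. Pdgfb had 64.9, 55.4, 44.3 and 54.9 CPM in fast MEF, against 1.19, 1.52, 4.56 and 0 CPM in slow MEF (4.93 ± 0.90, and 5.89 without slow replicate 3). Pdgfa rose by 1.41 ± 0.41 and missed the threshold when any of 4 libraries was left out (edgeR adjusted p = 0.0541 to 0.0612).

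Their receptors went the opposite way. Pdgfra had 6.39, 9.18, 9.97 and 8.16 CPM in fast MEF, against 163, 231, 216 and 192 CPM in slow MEF, a change of -4.57 ± 0.29 (edgeR adjusted p = 8.09e-06), and Pdgfrb changed by -4.76 ± 0.51. Ligand and receptor of this family thus lay in opposite gates. Of 23 tested receptor tyrosine kinases, 13 were lower (56.5%, against 17.3% over all genes tested), with a median of -2.04. The 4 that were higher (17.4%) were near the 14.4% over all genes tested. The ephrin receptors divided, with Epha2, an epithelial member, higher by 2.24 ± 0.48 (2.83 without slow replicate 3) and Epha4 lower by 4.42 ± 0.66. Met, the receptor of Hgf, had 46.3, 16.5, 9.33 and 23.9 CPM in fast MEF, against 8.32, 3.76, 3.3 and 6.48 CPM in slow MEF, a rise of 2.13 ± 0.60 that missed the threshold without slow replicate 2, slow replicate 3 or fast replicate 1 (edgeR adjusted p = 0.0547, 0.0528 and 0.0833). In the joint fit, 6 ligands and 3 receptors were called lower, and 1 of each higher.

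Wnt pathway genes were lower in 15 of 25 tested members (60%, against 17.3% over all genes tested), with a median of -2.12. They were higher in 4 (16%, near the 14.4% over all genes tested), or in 2 without slow replicate 2, slow replicate 3 or fast replicate 3. Some secreted inhibitors were among those that fell. Sfrp1, which binds Wnt proteins, had 38, 29, 9.33 and 32.2 CPM in fast MEF, against 679.7, 763, 726 and 543 CPM in slow MEF (-4.64 ± 0.42). Dkk3, of the Dickkopf family, changed by -4.75 ± 0.36 and Nkd1, an intracellular inhibitor, by -5.68 ± 0.97 (-6.37 without fast replicate 2). Dkk2, another secreted inhibitor, had 1.62, 6.47, 127 and 0.266 CPM in fast MEF, against 62.9, 122, 33 and 50.8 CPM in slow MEF, and was not called at -1.01 ± 1.31. Its fast replicate 3 lay above every slow library, and without it Dkk2 was at -4.51 (edgeR adjusted p = 0.00681). The co-receptor Lrp5 rose by 1.49 ± 0.34. In the joint fit 5 members were called lower and none higher.

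Bmp pathway genes had 8 of 21 tested members lower (38.1%) and 1 higher (4.76%), with a median of -1.41. Over all genes tested 17.3% were lower and 14.4% higher. The antagonist Grem1 had 7.31, 0.966, 2.33 and 8.69 CPM in fast MEF, against 376, 189, 399 and 229 CPM in slow MEF (-5.93 ± 0.68). Of the target genes Id3 fell by 3.03 ± 0.57 and Id2 rose by 2.44 ± 0.50. Without slow replicate 4, Id3 was at -2.39 and 2 members of the list were called higher. In the joint fit 4 members were called lower and none higher.

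Notch and Hedgehog genes were near the background, 2 of 17 tested members higher and 3 lower (median -0.19), but the members that changed did so strongly. Gli1, the transcription factor that Hedgehog signalling itself induces, had 33.2, 33, 74.6 and 61 CPM in fast MEF, against 1.72, 3.05, 2.99 and 0 CPM in slow MEF, a rise of 4.70 ± 0.89 (edgeR adjusted p = 0.00289). Gli3, mostly a repressor, fell by 3.47 ± 0.36 and the co-receptor Boc by 3.29 ± 0.48. Smo, the signalling receptor, was at -1.03 ± 0.37 and passed at -1.43 without fast replicate 3 (edgeR adjusted p = 0.00495). Jag2, a Notch ligand, had 87.4, 131, 73.6 and 116 CPM in fast MEF, against 0.264, 1.22, 1.89 and 0.236 CPM in slow MEF, a rise of 6.82 ± 0.68. Without fast replicate 3 the list had 5 members lower, without slow replicate 4 it had 4 higher, and in the joint fit 1 in each direction.

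Axon guidance ligands and receptors had 4 of 26 tested members higher (15.4%, near the 14.4% over all genes tested) and 8 lower (30.8%, against 17.3% over all genes tested), with a median of -0.76. Unc5b, a netrin receptor, had 4.16, 4.54, 1.91 and 3.37 CPM in fast MEF, against 315, 251, 309.7 and 175 CPM in slow MEF, a change of -6.21 ± 0.39 (edgeR adjusted p = 7.58e-06). The ligand Slit3 and the semaphorin receptor Nrp1 fell by 5.02 ± 0.36 and 4.06 ± 0.56. A semaphorin and its receptor rose together, Sema4d by 3.18 ± 0.68 and Plxnb1 by 3.41 ± 0.38, and Sema4d by 4.19 without slow replicate 3. The higher count was 2 without slow replicate 1 or 4, and the joint fit called 1 higher and 4 lower.

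Retinoid and nuclear receptor genes had 1 of 14 tested members higher (7.14%) and 4 lower (28.6%), with a median of -0.82. The shares over all genes tested were 14.4% and 17.3%. The list had 2 higher and 7 lower without fast replicate 3, and 3 higher without slow replicate 2. Cyp26b1, which breaks down retinoic acid, had 96.9, 50.3, 15.3 and 33 CPM in fast MEF, against 286, 6371, 218 and 107 CPM in slow MEF. Its change of -5.15 ± 1.34 rested on slow replicate 2 and was -2.06 without it (edgeR adjusted p = 0.0297). The carrier Crabp1 changed by -3.09 ± 0.54, and by -3.85 without fast replicate 3, and the glucocorticoid receptor Nr3c1 by -1.64 ± 0.41. A second carrier, Crabp2, ran the other way but was not called. It had 527, 365, 908 and 350.4 CPM in fast MEF, against 28.4, 339, 64.1 and 8.6 CPM in slow MEF. Aldh1a1, which makes retinoic acid, was the member called higher, by 3.55 ± 0.96 and by 4.47 without slow replicate 4.

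MHC class I presentation had 5 of 9 tested members lower and none higher (median -2.07). B2m, the invariant chain of MHC class I, had 71.2, 64.2, 48.1 and 61.6 CPM in fast MEF, against 397, 313, 341 and 419 CPM in slow MEF, a change of -2.58 ± 0.23 (edgeR adjusted p = 5.18e-05). Tap1, a subunit of the peptide transporter, fell by 4.29 ± 0.71 (-4.88 without fast replicate 2), while Tapbp, which links the transporter to MHC class I, was at -0.03 ± 0.37. Without slow replicate 4 or in the joint fit, 3 members were called. Ifitm3, an interferon-induced membrane protein, had 171, 109.7, 83.8 and 143 CPM in fast MEF, against 1295, 1302, 1199.7 and 1239.6 CPM in slow MEF (-3.31 ± 0.25).
The interferon-stimulated element was in the promoters of 1.88% of genes called higher and 4.37% of those called lower, with 2.83% over all genes tested and 3.58% over all promoters of the table. Among the genes named, Brca2, which rose, carried it as well as genes that fell. B2m carried it, and its bases before the start are shown with the match in capitals as the promoter of a gene that fell with little spread.
B2m promoter, chr2:122147437-122147686, plus strand: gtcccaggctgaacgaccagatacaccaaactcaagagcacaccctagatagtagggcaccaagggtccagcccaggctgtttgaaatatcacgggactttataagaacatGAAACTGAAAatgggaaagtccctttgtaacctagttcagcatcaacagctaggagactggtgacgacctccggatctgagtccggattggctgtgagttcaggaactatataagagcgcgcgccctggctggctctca

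Of 15 tested NF-kB pathway genes 4 were lower (26.7%, against 17.3% over all genes tested) and none higher (median -1.0). The adhesion molecules that the pathway induces fell, Vcam1 with 7, 1.74, 4.03 and 0.887 CPM in fast MEF, against 82.3, 74, 95.9 and 70.5 CPM in slow MEF (-4.57 ± 0.62), and Icam1 by 5.33 ± 0.81. They were at -5.24 without fast replicate 1 and at -6.00 without fast replicate 2. The TNF receptor Tnfrsf1a fell by 1.75 ± 0.28, and the subunit Rela was not called at -0.68 ± 0.28. Complement and plasminogen genes had 8 of 15 tested members lower and 1 higher (median -3.31). Serpine2, an inhibitor of plasminogen activators, had 11.1, 8.6, 8.27 and 11.6 CPM in fast MEF, against 472, 349, 216 and 418 CPM in slow MEF (-5.20 ± 0.33). The activator Plat and the serpin Serpinf1 changed by -4.55 ± 0.66 and -4.28 ± 0.54, Plat by -5.28 without fast replicate 1. Plaur, the urokinase receptor, was the member called higher at 1.30 ± 0.42, with libraries that overlapped, and missed the threshold without any of 6 libraries (edgeR adjusted p = 0.0581 to 0.0887). The joint fit called 2 NF-kB and 4 complement and plasminogen genes lower and none higher.

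Transcription factors of the limb and body wall had 11 of 21 tested members lower and none higher (median -2.24), with 13 more too low to test. Osr1, of lateral mesoderm, had 1.93, 4.73, 7 and 1.42 CPM in fast MEF, against 88.6, 115, 122 and 104 CPM in slow MEF (-4.86 ± 0.55). Irx3 and Shox2, patterning genes of the limb, changed by -4.74 ± 0.72 (-5.45 without fast replicate 3) and -4.49 ± 0.58, and Foxp1 was not called at -0.51 ± 0.27. Epithelial and ectodermal factors had 7 of 11 tested members higher and none lower (median 3.89), with 12 too low to test. Tfap2c, of trophoblast and surface ectoderm, had 62.2, 51.4, 211 and 42.2 CPM in fast MEF, against 0.396, 1.63, 3.3 and 0.118 CPM in slow MEF, a rise of 6.09 ± 0.96, or of 5.34 without fast replicate 3 and 6.92 without slow replicate 3. Ehf, an Ets factor of epithelia, rose by 5.42 ± 0.66, or 6.25 without slow replicate 3. These lists ran with the keratinocyte and fibroblast markers given above, and the joint fit called 4 limb genes lower.

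Splicing regulators that differ between epithelial and mesenchymal cells changed on both sides, 2 of 8 higher and 2 lower (median 0.06). Each share was 25%, against 14.4% higher and 17.3% lower over all genes tested. Esrp2, an epithelial regulator, had 89.5, 81.5, 72.3 and 69 CPM in fast MEF, against 0, 1.83, 1.57 and 4.24 CPM in slow MEF (5.33 ± 0.85). Its relative Esrp1 had 22.7 to 39.7 CPM in fast MEF and was at 0 in 3 slow libraries, with 1.63 CPM in slow replicate 2 (6.17 ± 1.20). The log2 fold change of Esrp1 was 11.09 without that library, which left no count in the slow gate, so its size depends on the prior count of the fit. That of Esrp2 was 6.07 without slow replicate 4. Mbnl2 and Rbfox2, regulators of the mesenchymal side, fell by 1.55 ± 0.26 and 0.98 ± 0.21, and Qk was not called at -0.27 ± 0.33. Neither of the lower genes was called in the joint fit. Of 19 germ line and early embryo genes only 1 had enough counts to be tested, and it was called lower.

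Tubulins, stathmins and microtubule proteins had 8 of 20 tested members higher and 1 lower (median 0.83). Stmn2, a microtubule destabiliser known from neurons, had 3956, 2954, 3956 and 3617 CPM in fast MEF, against 41.5, 202, 118 and 13 CPM in slow MEF, a rise of 5.27 ± 0.73 (edgeR adjusted p = 0.000541). Tubb3, Dpysl5 and Mtap2, also known from neurons, rose by 2.77 ± 0.25, 5.27 ± 1.04 and 4.03 ± 0.52 beside the neuron marker sums given above. Without slow replicate 2, Stmn2 was at 5.97 and Dpysl5 at 6.17. Tuba1a fell by 0.80 ± 0.21 and Tubb5 was not called at 0.40 ± 0.20. The lower count was 2 without slow replicate 1 or fast replicate 1.

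Actin regulators had 11 of 20 tested members lower and 2 higher (median -1.05). Those that rose build the microvilli of epithelia, Ezr by 4.64 ± 0.70 and Vil1 by 5.80 ± 0.90, or by 5.67 and 6.87 without slow replicate 2. Tmsb4x, which holds free actin, had 342, 283, 353 and 208 CPM in fast MEF, against 2045, 1808, 1364 and 1269 CPM in slow MEF (-2.45 ± 0.24). Palld, of stress fibres, and Gsn, which severs filaments, changed by -3.36 ± 0.41 and -2.44 ± 0.49, Gsn by -3.10 without fast replicate 3. Cfl1, which turns filaments over, was not called at 0.06 ± 0.14. Caveolae genes had 4 of 8 tested members lower and 1 higher (median -1.15). Cav1, their coat protein, had 33.2, 33.1, 17.6 and 14.4 CPM in fast MEF, against 360.1, 328, 304 and 294 CPM in slow MEF (-3.71 ± 0.34), while Ptrf, the adaptor cavin-1, rose by 1.21 ± 0.19 and Ehd2 fell by 1.50 ± 0.24. The joint fit called 4 actin regulators and 1 caveolae gene lower.

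Genes of the Bcl2 family and the caspases had 7 of 21 tested members lower (33.3%) and 1 higher (4.76%), with a median of -0.97. Over all genes tested 17.3% were lower and 14.4% higher. Bcl2l11, the death-promoting protein Bim, had 2.33, 4.54, 2.76 and 2.93 CPM in fast MEF, against 44.6, 67.5, 31 and 59.5 CPM in slow MEF (-4.0 ± 0.44). Casp12 fell by 4.47 ± 0.66. Bbc3, the death-promoting protein Puma, changed by -2.56 ± 0.71 with overlapping libraries, and missed the threshold without slow replicate 1 or fast replicate 4 (edgeR adjusted p = 0.0587 and 0.0543). Bid rose by 1.45 ± 0.37. Circadian genes had 5 of 13 tested members lower (38.5%, against 17.3% over all genes tested) and none higher (median -1.30). Nr1d1, a repressor of the clock, had 25.9, 35.7, 20.1 and 57 CPM in fast MEF, against 60.5, 193, 132 and 139.5 CPM in slow MEF (-1.92 ± 0.44). The output factors Dbp and Tef fell by 3.70 ± 0.94 and 1.89 ± 0.50, Dbp being at -4.75 without fast replicate 4, and Per1 was not called at -0.89 ± 0.46. In the joint fit 2 Bcl2 family or caspase genes and no circadian gene were called.

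The genes with the largest changes, among those with non-overlapping gates and a mean of at least 100 CPM in the higher one, lay mostly outside these lists. Crb3, a polarity protein of epithelia, had 486, 294, 406 and 368 CPM in fast MEF, against 0.264, 10.1, 0 and 2.48 CPM in slow MEF, a rise of 6.87 ± 1.12. Atp2a3, a calcium pump, had 1396, 1454, 986 and 1574 CPM in fast MEF, against 1.72, 34.3, 26.6 and 0.943 CPM in slow MEF (6.41 ± 1.06). Slow replicate 2 was the highest slow library for both, and without it they stood at 8.63 and 7.12. Slc4a11, a membrane transporter, and the uncharacterised genes 9130017N09Rik and E130012A19Rik rose by 6.42 ± 0.96, 6.49 ± 0.65 and 6.15 ± 0.49. Zbtb32, a zinc finger repressor, and the adaptor Dok2 rose by 6.95 ± 1.30 and 6.51 ± 0.94. Without slow replicate 2, Slc4a11 was at 7.19, Dok2 at 7.40 and Zbtb32 at 11.62. Zbtb32 then had 0.132, 0 and 0 CPM left in slow MEF, so its size depends on the prior count of the fit. Sh3tc1 had the highest estimate, 9.80 ± 1.96, from 52, 34.9, 3462 and 40.5 CPM in fast MEF, against 1.19, 1.02, 1.73 and 0.118 CPM in slow MEF, and was at 5.46 without fast replicate 3.

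On the lower side, Tnfrsf11a, the receptor of the bone factor RANKL, had 20.9, 16.6, 5.3 and 9.58 CPM in fast MEF, against 2107, 759, 825 and 669 CPM in slow MEF, a change of -6.37 ± 0.58 (edgeR adjusted p = 5.8e-05). The transcription factor Maf changed by -6.28 ± 0.71. Ltbp3, which tethers latent TGF-beta, changed by -5.44 ± 0.81 and the scavenger receptor Scarf2 by -5.30 ± 0.74. Without slow replicate 4, Ltbp3 was at -4.82. In amount of RNA, keratins led the rise, Krt17 with 12431, 7740.2, 18440.0 and 11679 CPM in fast MEF, against 28.8, 517, 278 and 18 CPM in slow MEF (5.90 ± 1.03). Krt6a, Sfn and Nccrp1, also known from stratified epithelium, rose by 4.95 ± 0.51, 5.69 ± 0.63 and 4.07 ± 0.45. Krt17 was at 6.85 without slow replicate 2 and Krt6a at 5.57 without slow replicate 3. Keratin genes have near-identical copies whose reads the counting could split, so their single values are uncertain. Among abundant genes that fell was the selenoprotein gene Sepw1, with 2761, 1925, 4468 and 3428 CPM in fast MEF, against 7502, 8969, 7975 and 8470.2 CPM in slow MEF (-1.39 ± 0.24). Srgn, the proteoglycan of secretory granules, had 4.35 to 7.71 CPM in fast MEF and no count in any slow library, which makes it at least 64.5-fold higher against a floor of 3 counts over the slow group.

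iPS and bulk MEF, the end and the start of reprogramming, are other libraries and placed the genes that differed between the gates. The labels give iPS as fast and bulk MEF as slow in cycle speed, so that cell identity and cycling speed cannot be told apart in this contrast. They also call bulk MEF unsorted, although the extraction protocol has cells sorted into wells. Between iPS and bulk MEF 5566 of 11736 genes tested (47.4%) were called, 24.1% higher and 23.3% lower in iPS. Of the 1691 genes higher in fast MEF, 787 (46.5%) were higher in iPS than in bulk MEF, 120 (7.1%) were lower, 587 (34.7%) were not called and 197 (11.6%) were not tested. Of the 2035 genes lower in fast MEF, 1204 (59.2%) were lower in iPS, 81 (3.98%) higher, 613 (30.1%) not called and 137 (6.73%) not tested. Read from the other list, the 787 were 27.8% of the 2828 genes higher in iPS and the 1204 were 44% of the 2738 genes lower in iPS. Among the 8016 genes tested but not called between the gates, 17.3% were higher and 16.9% lower in iPS. With all 24 libraries in 1 fit, 692 genes were called in the same direction in both comparisons, in place of 1991.

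**Figure D4:**
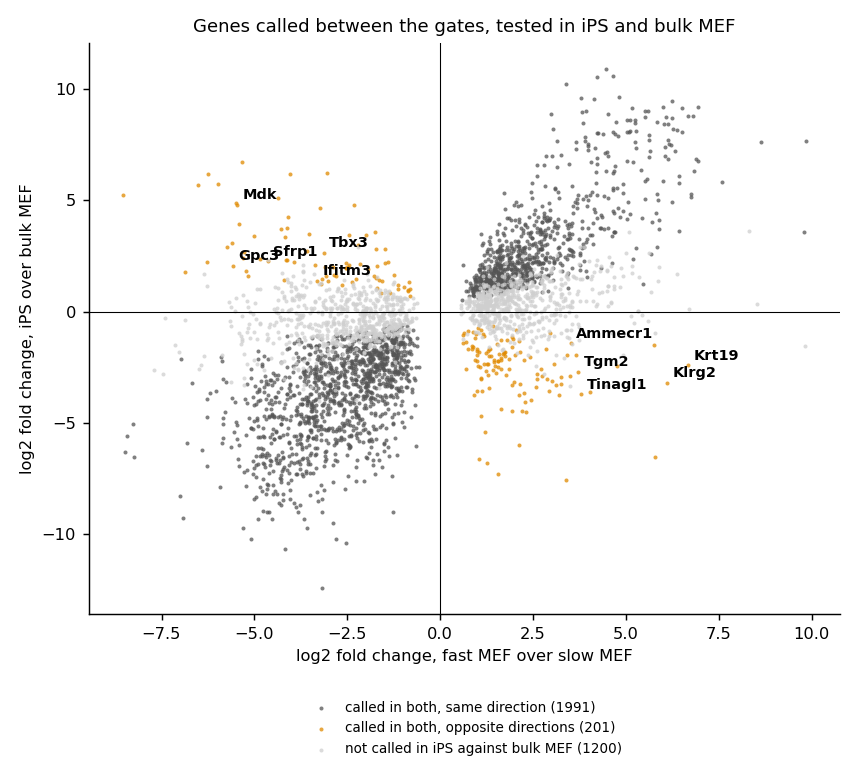
Log2 fold change of iPS over bulk MEF (vertical axis) against that of fast over slow MEF (horizontal axis) for genes called between the gates and tested in both; dark points were called in both in the same direction (1991), orange in opposite directions (201), grey in the gates alone (1200). The 2 comparisons share no library, and the named orange genes are those described in the text.

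Several genes described above kept their direction in iPS. Nup210 averaged 184 CPM in fast MEF, 4.05 CPM in slow MEF, 111 CPM in iPS and 0.186 CPM in bulk MEF (16-library scale), Gli1 47.8, 1.85, 18.3 and 0.0595 CPM in the same order and Jag2 96.8, 0.858, 27.1 and 0.324 CPM. These 3 genes were low in slow and bulk MEF alike. B2m was lowest in iPS, at 3.51 CPM, against 58.2 CPM in fast, 349.5 CPM in slow and 140.4 CPM in bulk MEF. Pdgfb was highest in the fast gate, at 52.1 CPM against 1.73 CPM in slow MEF, 1.8 CPM in iPS and 6.8 CPM in bulk MEF, and was not called between iPS and bulk MEF (edgeR adjusted p = 0.0653).

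For 201 genes the directions were opposite. Krt19, a keratin of simple epithelia, had 359, 245, 497 and 367 CPM in fast MEF, against 0.251, 6.01, 4.49 and 3.47 CPM in slow MEF. It had 1.06, 4.97, 3.83 and 1.51 CPM in iPS, against 3.77, 16.2, 35.7 and 3.09 CPM in bulk MEF. Tgm2, a protein cross-linker, averaged 1229 CPM in fast, against 93.9 CPM in slow MEF, and 12.8 CPM in iPS against 80.5 CPM in bulk MEF. Tinagl1, a matrix glycoprotein, averaged 276 CPM in fast, against 19.9 CPM in slow MEF, and 15.4 CPM in iPS against 194 CPM in bulk MEF. Klrg2 and Ammecr1 were of the same kind, with gate changes of 6.10 ± 0.66 and 3.51 ± 0.88 and iPS changes of -3.20 and -1.41, and Ammecr1 was at 2.17 between the gates without fast replicate 3. Tgm2 was at 4.57 between the gates without slow replicate 4.

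In the reverse kind, genes were low in the fast gate and high in iPS. Gpc3, a heparan sulphate proteoglycan of growing embryos, averaged 1.94 CPM in fast, against 97 CPM in slow MEF, and 152 CPM in iPS against 35.1 CPM in bulk MEF. Mdk averaged 3.22 CPM in fast, against 139 CPM in slow MEF, and 1065 CPM in iPS against 36.4 CPM in bulk MEF. Tbx3, a transcription factor of limb and of pluripotent cells, averaged 14 CPM in fast, against 123 CPM in slow MEF, and 379 CPM in iPS against 58.3 CPM in bulk MEF. Sfrp1 and Ifitm3 averaged 25.8 and 121 CPM in the fast gate, against 645 and 1198 CPM in slow MEF, their highest group, while iPS had 103 and 613 CPM, against 20.7 and 226 CPM in bulk MEF. Between the gates Gpc3 changed by -5.58 ± 1.0 (-6.18 without fast replicate 4) and Tbx3 by -3.13 ± 0.42.

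**Figure D5:**
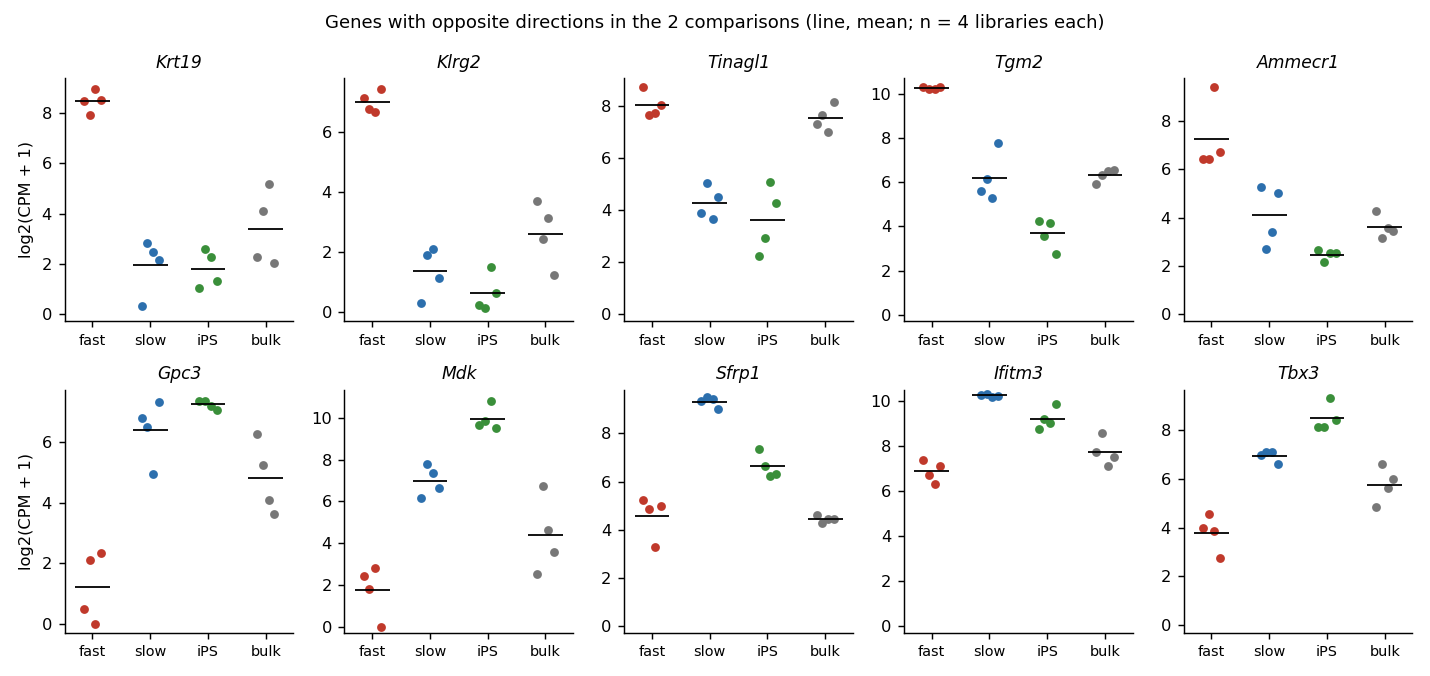
Levels of 10 genes, as log2(CPM + 1), in the 4 libraries each of fast MEF, slow MEF, iPS and bulk MEF, with lines at the group means. The upper row is higher in fast than slow MEF and lower in iPS than bulk MEF, and the lower row is the reverse.

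The GMP gates give a second comparison of fast with slow division, in blood progenitors. No gene of 10057 tested was called between fast and slow GMP by edgeR (0%), where 742 genes had an unadjusted p below 0.05, DESeq2 called 97 and the fit over all 24 libraries 385. The test of whether the gate difference itself differed between MEF and GMP called 193 of 13814 genes (1.4%), 83 with a more positive difference in MEF and 110 with a more negative one, and 2779 had an unadjusted p below 0.05. Nup210 differed by 8.20 ± 1.23 on the log2 scale (edgeR adjusted p = 0.00516), with a gate change of 5.52 in MEF and -2.63 ± 0.91 in GMP. Itga6, an integrin of epithelia, differed by 8.12 ± 1.21, from 5.47 in MEF (6.17 without slow replicate 2) and -2.54 ± 1.17 in GMP. On the negative side Igfbp4, which binds insulin-like growth factors, differed by -5.90 ± 0.88, from -4.69 in MEF and 1.29 ± 0.73 in GMP, and the sphingolipid receptor S1pr3 by -7.63 ± 1.14. None of these GMP changes was called by itself. The number called ran from 82 to 575 as single libraries were left out, with 575 reached without fast GMP replicate 1.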

How the data were processed

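RNA was sequenced from 24 libraries, of which 8 carry the comparison of fast with slow MEF. The deposited table holds unnormalised read counts for each gene symbol, 1 column per library. The submitters' processing notes name HTSeq, TopHat2 2.0.4, CASAVA 1.8.2 and mm9. Annotation and strandedness are not stated in them, so reads of a gene and of an overlapping or antisense partner cannot be told apart. Per the labels' protocols, cDNA was amplified before sequencing, so counts are not independent molecules and bounds cover counting error only.

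Groups were compared with edgeR 4.0.16 in R 4.3.3 (quasi-likelihood F test, two-sided, robust fit, TMM factors, filterByExpr), with Benjamini-Hochberg adjustment over all genes tested and a threshold of 0.05. Only the groups compared entered a fit, without a block. Errors of log2 fold changes, given as SE, are the absolute change divided by the square root of the F statistic, and are approximate. CPM values used TMM factors over the 8 libraries of the gates, over the 16 MEF and iPS libraries where stated, and over all 24 for marker sums. All 28 pairs among the 8 libraries differed beyond sampling noise (chi-square over degrees of freedom at least 48.7), so that none repeats another; this does not show separate cultures or animals.

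The 38 gene lists (786 members, 783 matched by symbol and 3 by synonym), the 11 marker lists (94 members) and the genes named were chosen with earlier results of these data known. The rule for named genes was the largest fold changes with non-overlapping gates and at least 100 CPM in the higher one, the largest changes in mean CPM, and for each list up to 3 called members per direction and 2 not called. It adds the 4 factors, the smallest interaction p-values and the largest gate changes with the opposite direction in iPS. Some genes that the rule selects are not reported here. Promoters came from RefSeq windows on GRCm38.p6, another build than that of the counts, and were matched by symbol. Tables and plots were made with Python 3.11.15, numpy 2.4.6, pandas 2.3.3 and matplotlib 3.10.9.

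Tested on simulated counts with 11446 genes at these depths, the comparison of the MEF gates called 28 of 98 genes with a 4-fold change and 66 of 94 with a 16-fold one, 5 of its 99 calls being false. The comparison of the GMP gates, over 9077 genes, called 0 of 93 and 0 of 91. Few genes were changed in these simulations, while 31.7% of genes were called between the MEF gates in the data. The shares found therefore hold for the simulated setting only.

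Alternatives were DESeq2 size factors and upper-quartile factors in edgeR, low-count filters that were absent or stricter, DESeq2 1.42.0, limma 3.58.1 (voom with sample quality weights), thinning to the smallest library, a replicate block, a joint fit of all 24 libraries, leaving out Rn45s and Lars2, and leaving out each library.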

Additional observations from a re-analysis of the deposited data

Results flagged for a closer look

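In 38 of 402 gene and gate pairs tested, 1 library lay far from the other 3 by Dixon's criterion. For normally distributed values chance alone flags about 1 in 20. The criterion was used on CPM that were not transformed, so the rate by chance is not known here. Of these, 20 were in fast and 18 in slow MEF, and 10 fell on fast replicate 3, 7 on slow replicate 2 and 6 on slow replicate 4. The CPM of each such library follows, in fast MEF before slow. Fast replicate 1 was the highest of its gate for Parp1 (661 CPM), Dok2 (159 CPM) and Gstm2 (26.6 CPM). Fast replicate 2 was the highest of its gate for Hsph1 (78.8 CPM), Wipi1 (48.8 CPM) and Gap43 (18 CPM). Fast replicate 2 was the lowest of its gate for Hmga1 (31 CPM). Fast replicate 3, the library with the fewest counts, was the highest of its gate for Cad (543 CPM), Xpo1 (1059 CPM), Nup155 (420.5 CPM), Ipo4 (315 CPM), Tfap2c (211 CPM), Sh3tc1 (3462 CPM), Ammecr1 (721 CPM), Col1a2 (2224 CPM), Dkk2 (127 CPM) and Rbfox3 (56.8 CPM). Fast replicate 4 was the highest of its gate for Nup210 (267 CPM), Dkk3 (20.9 CPM) and Syt1 (25.3 CPM). Slow replicate 1 was the highest of its gate for Slc1a5 (34.6 CPM), Ctsk (124 CPM) and Tnfrsf11a (2107 CPM). Slow replicate 2 was the highest of its gate for Hells (7.11 CPM), Gsr (17.1 CPM), Pdgfa (40.1 CPM), Cyp26b1 (6371 CPM), Esrp1 (1.63 CPM), Zbtb32 (5.59 CPM) and Nefl (43.3 CPM). Slow replicate 3 was the highest of its gate for Sema4d (8.96 CPM). Slow replicate 3 was the lowest of its gate for Eif5a (466 CPM). Slow replicate 4 was the highest of its gate for Ppat (20.5 CPM), Apoe (84.6 CPM), Apod (78.8 CPM), Rela (149 CPM) and Ltbp3 (412 CPM). Slow replicate 4 was the lowest of its gate for Plat (159.7 CPM).

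The gate difference itself differed between MEF and GMP for 30 of the genes named (edgeR interaction, adjusted p below 0.05). Of these, 16 were also tested within GMP. Their log2 difference of fast minus slow in MEF, less that in GMP, was positive for Nup210 (8.20), Hmgb2 (3.31), Jag2 (10.52), Stmn2 (5.69), Atp2a3 (8.12), Krt17 (6.58), Ammecr1 (8.72), Itga6 (8.12) and Srgn (8.31). It was negative for Ptn (-5.56), Slit3 (-7.74), Ifitm3 (-4.12), Igfbp4 (-5.90), S1pr3 (-7.63), Bgn (-4.27) and Col1a2 (-4.80). The other 14 had too few counts in GMP to be tested there, so that their size depends on the prior count of the fit. It was positive for Sox2 (5.62), Tfap2c (9.35), Ehf (6.48), Crb3 (12), Tgm2 (6.46), L1td1 (10.20) and Tppp3 (12.12). It was negative for Apoe (-13.77), Hgf (-11.70), Pdgfra (-6.88), Sfrp1 (-6.68), Serpine2 (-8.70), Nid1 (-6.42) and Col12a1 (-7.32). None of the 16 tested there was called within GMP, where the simulated test called no changed gene either.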

How the results depend on the processing

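The count of genes called between the MEF gates stayed between 3055 and 4697 under all alternatives but 1, and fell to 1246 with all 24 libraries in 1 fit. That fit also gave 3170 genes for iPS against bulk MEF, 142 list members (357 otherwise), 692 genes placed in the same direction (1991 otherwise), 385 for the GMP gates and 1069 for the interaction; the cause was not tested. DESeq2 called 97 genes between the GMP gates and 1563 for the interaction, and the stricter filter 291. The interaction ran from 82 to 575 (193 with all 16 libraries) as single libraries were left out. Of 174 named genes called between the gates, 52 missed the threshold in the joint fit, at most 3 under any other setting that kept all 8 libraries, and 9 without some library; none reversed. Among genes not called, Mthfd2 (-0.34 to 0.09 as single libraries were left out) turned positive at 0.09 and 0.04 without slow replicate 2 and fast replicate 3. Acly (-0.11 to 0.28 as single libraries were left out) turned negative at -0.11 without fast replicate 1. Tapbp turned positive at 0.04 with DESeq2 size factors, upper-quartile factors or DESeq2, 0.10 in the joint fit, and, within -0.38 to 0.24 as single libraries were left out, at 0.14, 0.05 and 0.24 without slow replicate 2, fast replicate 2 and fast replicate 3. With the replicate number as a block, 3344 genes were called. Deviations of same-numbered libraries correlated at 0.004, 0.056, 0.011 and -0.011, and not every library correlated best with its own number, so the numbers were not taken as pairs. Genes with few counts are limited by depth.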
